A study of Rattus norvegicus with 8 samples.

Results

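The ion channel genes of the rat incisor enamel organ were compared between the secretory and maturation stages of enamel formation. The members were the probes whose gene symbol on the array begins as a voltage-gated calcium, potassium or sodium channel subunit, a TRP channel, a chloride channel of the CLC, CLCA or CLIC type, a nicotinic acetylcholine receptor subunit or a GABA-A receptor subunit. This gave 192 probes for 187 genes, of 22523 probes for 21458 genes on the array. The potassium family held 86 of the probes, the calcium family 22, the TRP family 21, the chloride family 19, the GABA-A family 16, the nicotinic family 15 and the sodium family 13. A further 8 probes carry one of these names only in the current gene table and not on the array, and none of them was called by limma or by the Student test of the methods (1 had an unadjusted p below 0.05).

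Each of 4 rats of the Wistar strain (male Wistar Hannover in the study's methods), aged 4 weeks and given no treatment in the labels, supplied RNA from its secretory-stage and from its maturation-stage incisor enamel organ, and each sample was read on 1 Illumina RatRef-12 v1 BeadChip array. The enamel organ is a whole tissue of ameloblasts and the cells around them, so that fewer cells of a type and less RNA per cell cannot be told apart. For maturation replicates 2, 3 and 4, one label (the source name) gives the secretory stage where the title, description and tissue give maturation, and all 8 arrays correlated more closely with the arrays of their own titled stage (lowest mean correlation 0.991) than with the other stage (highest 0.947). The normalized signals of the markers of maturation-stage ameloblasts (Klk4, Car6 and Slc24a4), taken off the log scale, summed to between 21170 and 24860 on the maturation-stage arrays and between 224.4 and 332.1 on the secretory-stage arrays. Those of secretory-stage ameloblasts summed to 30680 to 52980 and 58660 to 63410, and the matrix gene Enam read 9.08 and 8.22 on the log2 scale in maturation replicates 1 and 4 against 5.17 and 5.53 in replicates 2 and 3. Without maturation replicate 1 the call of Scn7a was lost (0.79), and without maturation replicate 4 those of Cacna1g (-0.80) and Kcnq5 (-0.81). These calls did not hang on replicates 1 and 4 alone. Cacna1g was also lost without maturation replicate 2, Kcnq5 without maturation replicate 2 or 3, and Scn7a without secretory replicate 2. Chrnb4 was called without maturation replicate 1 or 4, and Kcnab1 without maturation replicate 3 or 4.

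Ion channels are membrane proteins that open a pore for ions to cross down their electrochemical gradient. Epithelia use potassium channels to return potassium and hold the membrane potential, chloride channels to carry anions along with bicarbonate and water, and calcium-permeable channels to admit calcium. Ameloblasts of the maturation stage move calcium, phosphate, bicarbonate and protons across the cell layer while the mineral crystals thicken, whereas those of the secretory stage mainly export the enamel matrix proteins.

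The proximal promoters of 4 members are given here: in each direction, the 2 with the largest fitted change among those with an entry in RefSeq's promoter table for the GRCr8 assembly. A promoter runs from 250 bases before the transcription start to 50 after it, 300 bases in all. Scn10a lies at chr8:128340249-128340548 on the minus strand and Kcnip2 at chr1:254613849-254614148 on the minus strand, and both genes had the lower signal in the maturation stage. Clca2 lies at chr2:236682409-236682708 on the minus strand and Trpm6 at chr1:225559278-225559577 on the plus strand, and both had the higher signal in the maturation stage. Capitals mark a CCAAT box (CCAAT, or ATTGG when read on the other strand) or a GC box (GGGCGG, or its reverse complement).
Scn10a: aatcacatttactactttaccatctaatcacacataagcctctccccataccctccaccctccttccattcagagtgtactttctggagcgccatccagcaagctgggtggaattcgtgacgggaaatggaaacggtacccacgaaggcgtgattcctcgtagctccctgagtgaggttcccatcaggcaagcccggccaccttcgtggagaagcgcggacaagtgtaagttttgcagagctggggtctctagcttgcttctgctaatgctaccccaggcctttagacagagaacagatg
Kcnip2: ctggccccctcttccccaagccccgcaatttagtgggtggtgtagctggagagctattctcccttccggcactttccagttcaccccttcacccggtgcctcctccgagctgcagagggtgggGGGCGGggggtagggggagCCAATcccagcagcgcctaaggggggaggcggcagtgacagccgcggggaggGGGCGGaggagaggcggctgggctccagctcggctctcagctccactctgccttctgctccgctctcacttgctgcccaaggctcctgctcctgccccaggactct
Clca2: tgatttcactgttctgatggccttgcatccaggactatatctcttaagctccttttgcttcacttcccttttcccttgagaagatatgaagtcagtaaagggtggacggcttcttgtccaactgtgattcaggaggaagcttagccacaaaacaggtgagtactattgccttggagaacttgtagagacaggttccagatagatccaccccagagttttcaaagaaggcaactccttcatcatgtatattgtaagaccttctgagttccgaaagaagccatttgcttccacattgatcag
Trpm6: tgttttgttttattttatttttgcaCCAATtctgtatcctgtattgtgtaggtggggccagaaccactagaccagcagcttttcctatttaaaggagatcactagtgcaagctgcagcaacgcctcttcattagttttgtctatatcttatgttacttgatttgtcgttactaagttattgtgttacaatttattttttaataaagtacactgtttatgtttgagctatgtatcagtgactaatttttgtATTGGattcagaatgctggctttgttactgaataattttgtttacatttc

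Counted from 1 at the 5′ end of the printed sequence, the Kcnip2 promoter held a CCAAT box at positions 143 to 147 and GC boxes at 124 to 129 and at 195 to 200. The Trpm6 promoter held CCAAT boxes at 26 to 30 and at 251 to 255, and the Scn10a and Clca2 promoters held neither motif. Promoters were found for 18 of the 25 called probes, 8 higher and 10 lower. Searched on both strands, CCAAT was in 5 of the 18 (2 higher, 3 lower) and in 37.5% of all 33469 promoters of the table, and GGGCGG was in 10 of the 18 (4 higher, 6 lower) and in 33.1% of all. The TATA box TATAAA (14.2% of all promoters), the E-box CACGTG (6.42%) and the AP-1 site TGACTCA (4.63%) were in none of the 18 windows. The G+C content had a median of 57.1% (range 32.7 to 77.7) among the promoters of genes called higher, 69.2% (44.3 to 88.7) among those called lower and 51.7% over the whole table.

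Most of the channel genes were faint or not seen. A probe was taken as detected on an array at a detection p below 0.05, the p deposited with each signal that sets it against the negative-control beads. Of the 192 probes, 102 were detected on at least 1 array, 44 on all 8 and 90 (46.9%) on none, where 40% of all probes on the array were detected on none. Between 71 and 74 members were detected on a maturation-stage array and between 67 and 69 on a secretory-stage array. In all, 14 members were detected on maturation-stage arrays alone, where 5.53% of all probes were, and 12 on secretory-stage arrays alone, where 3.27% were. The families differed in how many of their members were seen: 15 of 19 chloride probes and 10 of 15 nicotinic probes were detected, against 44 of 86 potassium, 12 of 22 calcium, 10 of 21 TRP, 6 of 16 GABA-A and 5 of 13 sodium probes. The undetected ones included 7 of the 8 calcium channel gamma subunits, 8 of the 14 inward rectifiers and 6 of the 9 sodium channel pore subunits.

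The stages were compared on normalized log2 signals with limma's moderated test across all probes, and a probe was called at a Benjamini-Hochberg adjusted p below 0.05 and a change of at least 1.8-fold. Log2 fold changes are maturation minus secretory. In all, 25 of the 192 member probes (13.0%) were called, where 7.75% of all probes were called. In the maturation stage 13 members were higher, where 4.6% of all probes were called higher, and 12 were lower, where 3.15% were called lower. Among probes detected on at least 1 array the share was 24.5% for the members and 12.9% for all. The 4 arrays of one stage did not overlap the 4 of the other for 48 members (25%), where this held for 27.7% of all probes, and all 25 called members were among them, with the same direction in 4 of 4 rats. The median log2 fold change was -0.02 over the members and -0.01 over all probes. With the signals only shifted to a common median in place of quantile normalization, 19 members were called higher and 7 lower, a share of 73.1% higher in place of 52%; the same scaling moved the share over all called probes from 59.3% to 77.6%.

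**Figure D1:**
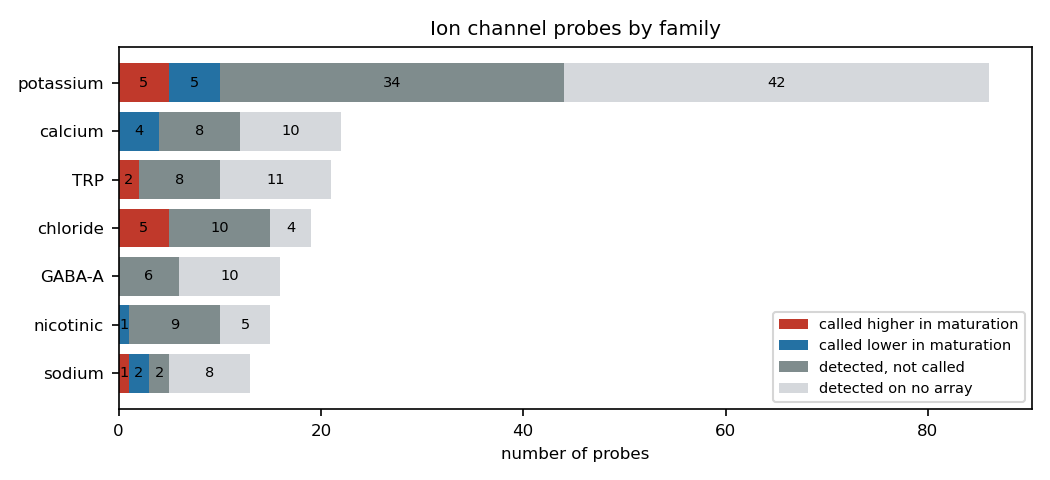
Number of ion channel probes in each of the 7 families (horizontal bars), divided into probes called higher in the maturation stage, called lower, detected on at least 1 array without a call, and detected on no array. All 5 chloride calls were higher and all 4 calcium calls were lower, while the potassium family had 5 of each.

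**Figure D2:**
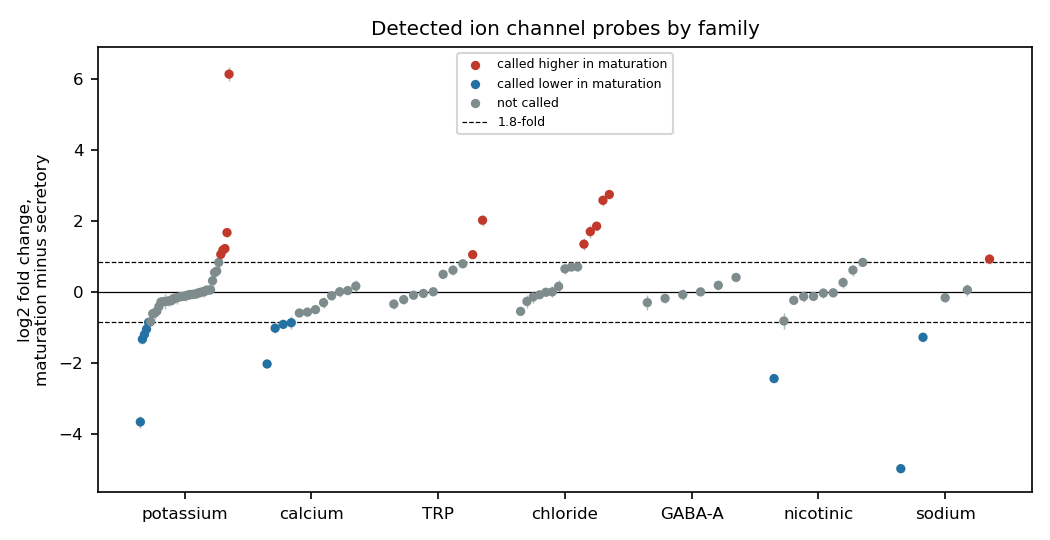
Log2 fold change (maturation minus secretory, vertical axis) of the 102 ion channel probes detected on at least 1 array, ordered by value within each family. Vertical lines are standard errors of the fit, mostly shorter than the points, and dashed lines mark 1.8-fold. The probe at the top is Kcnn4 (6.14) and the lowest are Scn10a (-4.98) and Kcnip2 (-3.67).

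The potassium channels moved in both directions, with 5 probes called higher and 5 lower, and held the largest rise of all members. The called share was 11.6% of their probes, where 7.75% of all probes were called. Kcnn4, the calcium-activated potassium channel of intermediate conductance (KCa3.1), had log2 signals of 11.19, 11.75, 11.48 and 11.68 on the maturation-stage arrays and 4.94, 5.88, 5.26 and 5.45 on the secretory-stage arrays. Every maturation-stage array lay far above every secretory-stage array. The rise was 6.14 on the log2 scale (SE 0.195, 70.6-fold, adjusted p = 5.14e-08). In the deposited signals, before any correction, Kcnn4 read 2968 to 4002 units in the maturation stage and 113 to 139 units in the secretory stage, so that the size of the fold rests on secretory-stage signals near background, and the probe was detected on 3 of those 4 arrays. Without background correction the rise was 4.50. The related calcium-activated channels Kcnn1, Kcnn2 and Kcnn3 and the sodium-activated channel Kcnt2 had log2 fold changes between -0.19 and -0.07 and did not pass the test, and Kcnma1, the pore of the large-conductance channel, was not detected on any array.

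Kcnk1 (TWIK-1), a two-pore-domain channel that carries background potassium current, read 13.55, 13.45, 13.26 and 13.59 in the maturation stage and 12.39, 12.42, 12.41 and 12.38 in the secretory stage. The secretory-stage arrays were nearly identical (SD 0.0206) and all lay below the lowest maturation-stage array, a rise of 1.06 on the log2 scale (SE 0.0767, 2.08-fold, adjusted p = 6.58e-06). The mechanosensitive two-pore channel Kcnk2 (TREK-1) went the other way, with 7.26, 5.99, 6.25 and 6.66 in the maturation stage and 8.06, 7.69, 7.49 and 7.71 in the secretory stage. Its maturation-stage arrays were the most spread of any called member (SD 0.555) and their highest lay just under the lowest secretory-stage array (log2 fold change -1.20, adjusted p = 0.00504). Its deposited signals overlapped, at 168 to 299 units in the maturation stage and 238 to 299.8 units in the secretory stage.

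Among the voltage-gated potassium channels, 3 probes of 42 were called higher and 3 lower (14.3%, where 7.75% of all probes were called). Kcnh2 (hERG, a delayed rectifier of the heart) read 6.02, 6.25, 6.63 and 6.14 in the maturation stage and stayed undetected on all secretory-stage arrays, so that its rise was at least 2.33-fold (adjusted p = 6.41e-06). Kcnd3, which forms the fast-inactivating A-type current, read 6.60, 6.98, 6.85 and 7.16 against 5.38, 5.81, 5.76 and 5.75 (log2 fold change 1.22, SE 0.134). Kcns3, a subunit that is silent alone and modifies other voltage-gated pores, read 7.37, 7.46, 7.08 and 7.54 against 6.04, 6.26, 6.30 and 6.14 (log2 fold change 1.18, SE 0.105). All 3 were separated by stage without overlap.

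The 3 voltage-gated probes called lower were Kcng1 and Kcng2, also modifier subunits, and Kcnq5, which forms a slow M-type current. Kcng2 read 4.99, 5.16, 5.14 and 5.02 in the maturation stage and 6.62, 6.69, 6.35 and 5.97 in the secretory stage (log2 fold change -1.33, SE 0.144), and Kcng1 had a log2 fold change of -1.05 (SE 0.0995), which lay under the fold threshold with median scaling (-0.74). Both calls were lost without background correction and with an offset of 50. Thus of these modifier subunits, Kcns3 was higher and Kcng1 and Kcng2 were lower in the maturation stage, while Kcns1 did not pass the test (-0.26, adjusted p = 0.0567). Kcnq5 was read by 2 probes that disagreed: one was called, at -0.86 (adjusted p = 1.81e-04), and the other was detected on no array, with a fitted value of -0.14. The call was lost, by size, without maturation replicate 2 (-0.80), 3 (-0.83) or 4 (-0.81) and without secretory replicate 2 (-0.84). It was also lost with normexp without negative controls (-0.67), without background correction (-0.29), with an offset of 50 (-0.46), with cyclic loess (-0.82) and with median scaling (-0.75), and the deposited signals overlapped (117 to 141 against 129 to 138 units).

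The auxiliary subunit Kcnip2 (KChIP2), a calcium-binding protein that partners the Kcnd pores, had the largest fall of the family, with 5.14, 4.66, 4.55 and 4.69 in the maturation stage and 8.79, 8.60, 8.23 and 8.09 in the secretory stage. It was detected on 1 of the 4 maturation-stage arrays, and no array of one stage came near the other (log2 fold change -3.67, SE 0.173, 12.7-fold, adjusted p = 4.69e-07). Kcnip2 and Kcnd3, which can join in one channel complex, therefore moved in opposite directions, and the other Kcnd pores Kcnd1 (-0.03, adjusted p = 0.924) and Kcnd2 (0.05, adjusted p = 0.868) did not pass the test. No inward rectifier among 14 probes was called by limma or by the Student test of the methods, and 2 had an unadjusted p below 0.05. The adjusted p was below 0.05 for 1 of them, Kcnj1, which was not detected on any array.

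**Figure D3:**
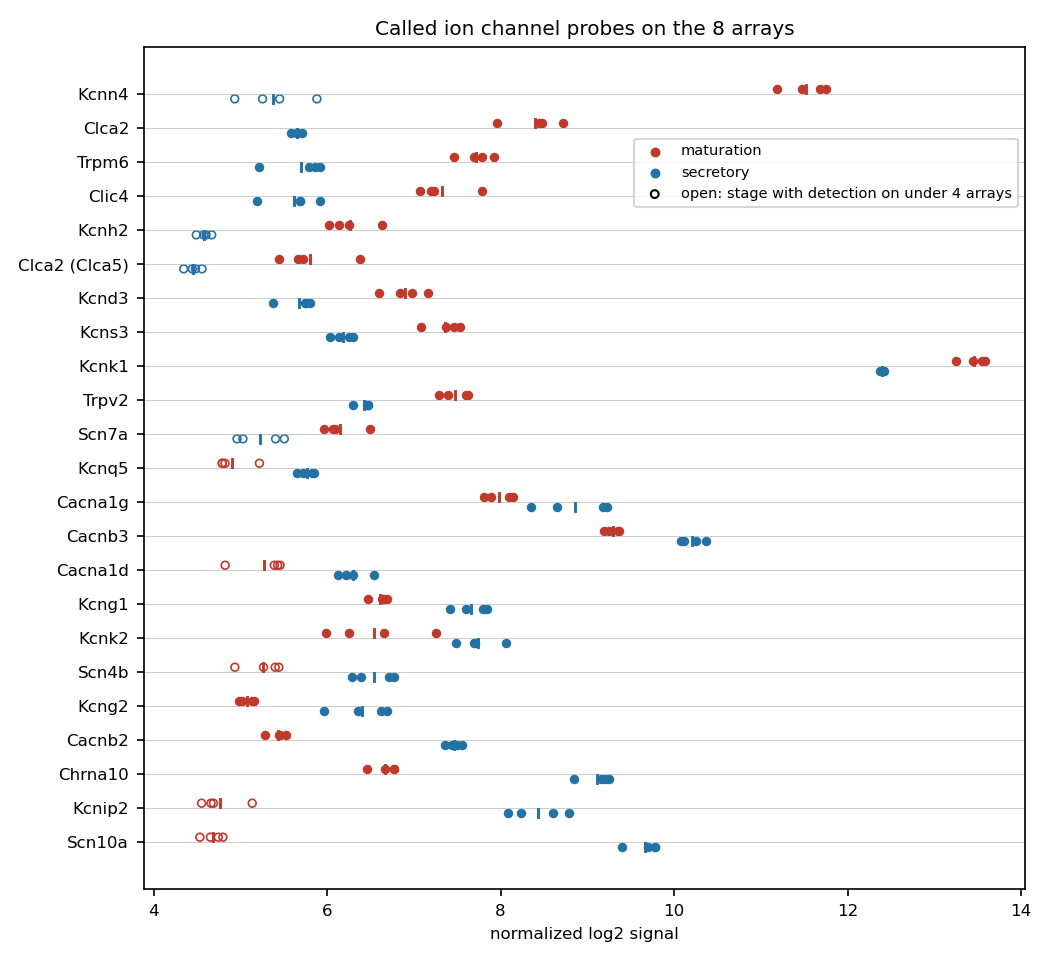
Normalized log2 signal (horizontal axis) of 23 of the 25 called ion channel probes on the 4 maturation-stage and 4 secretory-stage arrays, 1 point per array, with a short line at the stage mean, ordered by log2 fold change. Open circles mark a stage in which the probe was not detected on every array; the 2 stages do not overlap for any probe drawn. Signals of different probes are not comparable in level.

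Of the chloride channels, 5 of 19 probes were called higher in the maturation stage and 0 lower by limma, where 1 was lower at an unadjusted p below 0.05 and 0 by the Student test. The called share was 26.3%, where 7.75% of all probes were called. The CLCA genes encode secreted or membrane-bound metalloproteases that modulate chloride currents, and 4 probes lay in their cluster on chromosome 2, in the order Clca5, Clca4, Clca1 and Clca2. The Clca2 probe read 7.95, 8.72, 8.47 and 8.44 in the maturation stage and 5.66, 5.66, 5.58 and 5.71 in the secretory stage, with no overlap (log2 fold change 2.75, SE 0.140, 6.72-fold, adjusted p = 7.41e-07). At the opposite end of the order, Clca5, which the array also names Clca2, read 5.73, 6.38, 5.45 and 5.66 and was not detected in the secretory stage. Its change was at least 1.70-fold (adjusted p = 2.67e-04), so that it was called from its fitted fold of 2.55 and would not be from the bound. The Clca5 call was also lost without background correction and with an offset of 50. The Clca4 and Clca1 probes between them were not detected on any array.

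Of the 6 CLIC probes, whose proteins exist in soluble and membrane forms, Clic4 was called, with 7.07, 7.79, 7.19 and 7.24 in the maturation stage and 5.20, 5.92, 5.69 and 5.68 in the secretory stage (log2 fold change 1.70, SE 0.183, adjusted p = 8.66e-05). Clic1 (0.70) and Clic2 (0.65), with adjusted p of 3.87e-04 and 0.0063, passed on p alone, as did Clcn7, the lysosomal chloride-proton exchanger, at 0.71 (adjusted p = 0.00176). Osteoclasts use Clcn7 to resorb bone, and 3 of 4 osteoclast marker probes were called higher, with a summed signal of 14970 to 19260 against 5956 to 8513; their part in the Clcn7 value was not tested. The endosomal exchanger Clcn3 was the one chloride member with an adjusted p below 0.05 and a negative change (-0.55, adjusted p = 0.00534), lower in 4 of 4 rats. Clcn2, Clcn6, Clic3, Clic5 and Clic6 had values between -0.14 and 0.16 and did not pass.

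Of the voltage-gated calcium channels, 4 of 22 probes were called lower in the maturation stage and 0 higher by limma. At an unadjusted p below 0.05 and by the Student test, 0 were higher. The called share was 18.2%, where 7.75% of all probes were called. The number of calls depended on the background correction and the scaling: Cacnb2 kept its call under every alternative, while Cacna1d, Cacna1g and Cacnb3 lost theirs with median scaling (-0.85, -0.52 and -0.59) and without background correction (-0.39, -0.68 and -0.83), and Cacna1g and Cacnb3 also with cyclic loess (-0.79 and -0.84). Cacna1d and Cacna1g further lost theirs with normexp without negative controls (-0.80 and -0.83) and with an offset of 50 (-0.63 and -0.79). The beta subunits, which sit on the cytoplasmic side and bring the pore to the membrane, held 2 of the calls. Cacnb2 read 5.53, 5.45, 5.45 and 5.29 in the maturation stage and 7.44, 7.36, 7.49 and 7.56 in the secretory stage (log2 fold change -2.03, SE 0.0713, 4.09-fold, adjusted p = 8.07e-08). Cacnb3 read 9.37, 9.20, 9.35 and 9.25 against 10.12, 10.37, 10.26 and 10.08 (log2 fold change -0.91, SE 0.0785, adjusted p = 1.98e-05). After normalization the stages did not overlap for either. The deposited signals of Cacnb3, before normalization, did overlap, at 777 to 971 units in the maturation stage and 949.8 to 1221 units in the secretory stage. Cacnb1 was detected on 3 secretory-stage and no maturation-stage arrays (fitted log2 fold change -0.57, at least 1.23-fold lower), and Cacnb4 on none.

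Of the pore-forming subunits, 2 of 7 were called. Cacna1d, an L-type pore, read 5.39, 4.83, 5.46 and 5.43 in the maturation stage and 6.55, 6.13, 6.30 and 6.21 in the secretory stage (log2 fold change -1.02, SE 0.150, adjusted p = 6.24e-04). Cacna1g, a T-type pore that opens at low voltage, read 8.15, 7.89, 8.10 and 7.81 against 8.65, 9.23, 9.18 and 8.35, and the lowest secretory-stage array lay close to the highest maturation-stage array (log2 fold change -0.87, SE 0.189, adjusted p = 0.00668). Its call was lost without maturation replicate 2 (-0.83) or 4 (-0.80) and without secretory replicate 2 (-0.75) or 3 (-0.76), and its deposited signals overlapped (359 to 472 against 341 to 589 units). The L-type pore Cacna1c lay just outside the threshold at -0.59 (adjusted p = 8.92e-04), and Cacna2d1, the alpha2delta subunit that raises current density, was at -0.50 (adjusted p = 0.00474). These 2, with Cacnb1 and the called members, made 7 calcium channel probes with an adjusted p below 0.05, all of them negative. With median scaling Cacna1c was at -0.26 (adjusted p = 0.0545) and Cacna2d1 at -0.14 (adjusted p = 0.386), neither past the test. The deposited signals of Cacna1c, before normalization, were 273 to 299.9 units in the maturation stage and 259 to 315 units in the secretory stage and overlapped.

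The member with the largest fall was a sodium channel. Scn10a, the tetrodotoxin-resistant channel Nav1.8 known from pain-sensing neurons, read 9.79, 9.78, 9.70 and 9.40 in the secretory stage and was not detected on any maturation-stage array, where its values were 4.53, 4.65, 4.75 and 4.80. It was at least 26.3-fold lower in the maturation stage (fitted log2 fold change -4.98, SE 0.0985, adjusted p = 6.21e-09). The deposited signals were 614 to 835 units in the secretory stage and 112 to 123 units in the maturation stage. The sensory-neuron channel Scn11a, close to it on chromosome 8, was not detected on any of the 8 arrays. Scn4b, an auxiliary beta subunit, was also lower, with 5.44, 4.94, 5.27 and 5.40 against 6.78, 6.72, 6.39 and 6.28 (log2 fold change -1.28, SE 0.143, adjusted p = 1.09e-04). The Scn4b call was lost without background correction and with an offset of 50.

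Scn7a, the sodium-sensing channel Nax, was the sodium member called higher, with 6.50, 5.96, 6.07 and 6.09 in the maturation stage and 5.51, 4.96, 5.03 and 5.41 in the secretory stage (log2 fold change 0.93, SE 0.152, adjusted p = 0.00127). The call was lost without maturation replicate 1 (0.79) and without secretory replicate 2 (0.85, just under the threshold), and also with normexp without negative controls (0.71), without background correction (0.34) and with an offset of 50 (0.56). Scn1a, the Nav1.1 pore, was detected on all 8 arrays and had a log2 fold change of 0.06 (SE 0.179, adjusted p = 0.886), which turned negative without maturation replicate 1 (-0.04).

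Because Scn10a is known from neurons, nerve markers were read beside it. Of 10 nerve marker probes, 7 were detected, and the axonal and neuronal markers Nefl, Prph1 (peripherin) and Stmn2 were not detected on any array. Gap43 (0.30, adjusted p = 0.15), Nef3, now Nefm (-0.21, adjusted p = 0.271), and Nefh (0.01, adjusted p = 0.986), also markers of axons, were detected on all 8 arrays and did not pass the test. The summed marker signal was 3154 to 3714 in the maturation stage and 2367 to 3320 in the secretory stage. Gap43 was the brightest of these probes (mean log2 signal 11.28 in maturation and 10.98 in secretory), so the sum mainly follows it. Tubb3 (-2.58) and Uchl1 (-1.12) were called lower in the maturation stage, as Scn10a was, and the vesicle-fusion gene Snap25 was called higher (4.35, at least 15.7-fold). The 6 Schwann cell marker probes summed to 323.3 to 437.8 and 316.1 to 337.7. The odontoblast gene Dspp was, like Scn10a, detected on all secretory-stage and no maturation-stage arrays (at least 34.0-fold lower in the maturation stage). Of the other odontoblast and osteoblast markers, Ibsp was called higher (1.95, adjusted p = 1.27e-05), Dmp1 was at 0.98 and higher in 4 of 4 rats without passing the test (adjusted p = 0.157), and Bglap2, Col1a1 and Phex were not called. The 6 odontoblast and osteoblast marker probes summed to 14620 to 17220 in the maturation stage and 9002 to 23890 in the secretory stage. The brightest were Bglap2 (mean log2 signal 12.80 in maturation and 12.96 in secretory) and Col1a1 (12.43 and 12.34). The sum therefore says little of Dspp (4.59 and 10.04). The part of nerve fibres or odontoblasts in the sodium channel values was not tested.

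**Figure D4:**
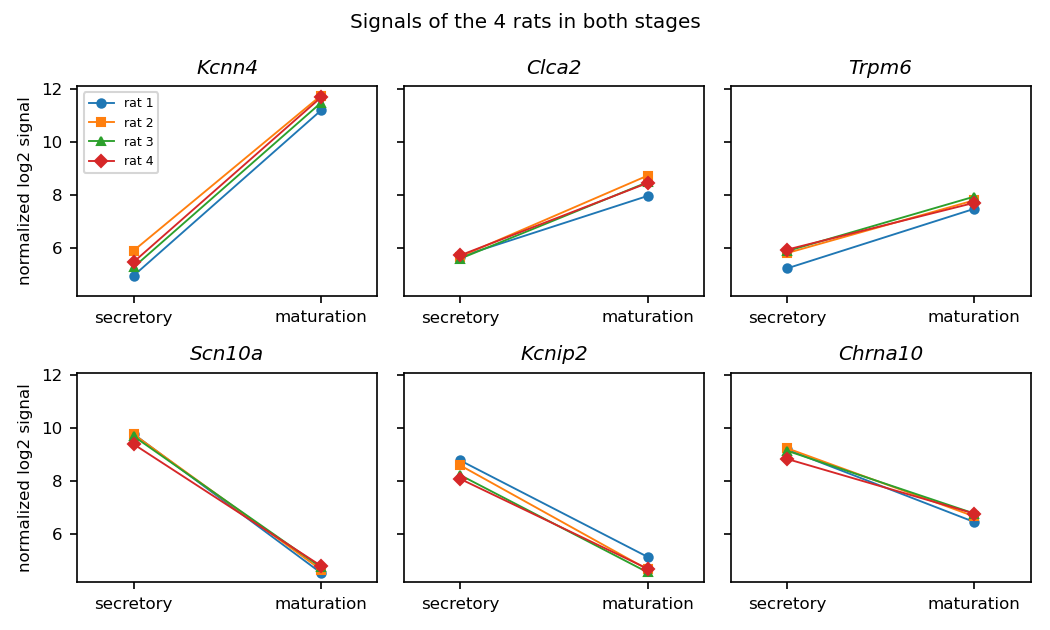
Normalized log2 signal (vertical axis) of 6 called members in the secretory and maturation stages of each of the 4 rats, with a line joining the samples of 1 rat. Kcnn4, Clca2 and Trpm6 rose and Scn10a, Kcnip2 and Chrna10 fell in all 4 rats, and the lines of a gene lie close together.

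The TRP family holds cation channels opened by chemical, thermal or mechanical signals. It had 2 calls in 21 probes (9.52%, where 7.75% of all probes were called), both higher. By limma or the Student test 0 were lower, and 1 was lower at an unadjusted p below 0.05. Trpm6, a magnesium- and calcium-permeable channel fused to a kinase and known from magnesium absorption in gut and kidney, read 7.47, 7.79, 7.93 and 7.69 in the maturation stage and 5.21, 5.79, 5.87 and 5.92 in the secretory stage. The stages lay well apart, with secretory replicate 1 below the other 3 (log2 fold change 2.02, SE 0.161, 4.06-fold, adjusted p = 1.22e-05). Trpv2 read 7.63, 7.39, 7.60 and 7.29 against 6.46, 6.47, 6.47 and 6.30 (log2 fold change 1.05, SE 0.0874, adjusted p = 1.60e-05). The Trpv2 call was lost without background correction and with an offset of 50. Macrophages also carry Trpv2 and Kcnn4, and 7 of 10 macrophage and leukocyte marker probes were called higher, with a summed signal of 9608 to 12390 in the maturation stage against 3646 to 4329 in the secretory stage. The part of these cells in the members that were higher was not tested.

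The epithelial calcium channel Trpv6 did not pass the test (log2 fold change -0.21, adjusted p = 0.344) and its relative Trpv5 was not detected on any array. Trpv4, an osmotically gated channel, was at -0.09 (adjusted p = 0.548) and the TRPC4-associated protein Trpc4ap at -0.04 (adjusted p = 0.662); with median scaling both turned positive, at 0.23 and 0.22. The heat receptor Trpv1 (0.50, adjusted p = 0.00194) was detected on all maturation-stage and no secretory-stage arrays, with a bound of at least 1.10-fold, and was not called. Trpm4, a calcium-activated cation channel, lay just outside the threshold (0.61, adjusted p = 0.0118).

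Among the nicotinic receptor subunits, Chrna10 was the one called member of 15 probes (6.67%, where 7.75% of all probes were called). It read 6.46, 6.67, 6.78 and 6.78 in the maturation stage and 9.20, 9.25, 9.15 and 8.84 in the secretory stage, with no array near the other stage (log2 fold change -2.44, SE 0.107, 5.44-fold, adjusted p = 2.95e-07). Chrna10 pairs with Chrna9 in the hair cells of the inner ear, and the Chrna9 probe was detected on 1 array of each stage (log2 fold change -0.03, adjusted p = 0.918). Chrnb4 was lower without a call (-0.82, adjusted p = 0.0167), with overlapping stages. The muscle subunit Chrnb1 (0.83, adjusted p = 4.46e-04) and Chrna5 (0.62, adjusted p = 0.0139) lay just under the fold threshold; at an unadjusted p below 0.05 these 2 were the nicotinic probes higher in the maturation stage, and 0 were called so by limma or the Student test. The 13 skeletal muscle marker probes summed to 563.7 to 1554 in the maturation stage and 514.1 to 942.3 in the secretory stage. Of them 1 Ryr1 probe was called higher (1.97) and Actn3 was called lower (-1.57), while the other Ryr1 probes were not detected on any array. The part of muscle in the Chrnb1 value was not tested.

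No GABA-A receptor subunit was called by limma or by the Student test, and 1 probe in each direction had an unadjusted p below 0.05. The members named for their mean signal, Gabrb2 (-0.18, adjusted p = 0.36) and Gabra4 (-0.30, adjusted p = 0.363), were detected on 6 and 3 of the 8 arrays.

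Near the thresholds, 14 members had an adjusted p below 0.05 and a fold between 1.5 and 1.8. Closest to a call were Kcnab1, a beta subunit of Kv1 channels (-0.84), and Kcnmb1, the smooth muscle subunit of the large-conductance channel (0.84), with adjusted p of 2.29e-04 and 0.00469, beside Chrnb1 (0.83). Just inside were the called Kcnq5 probe (-0.86), Cacna1g (-0.87) and Cacnb3 (-0.91). Kcnh1, Kcne3 and Kcnk12 lay further out, at -0.61, -0.59 and 0.59. With median scaling Chrnb1 (1.03), Clic1 (0.95), Clic2 (0.97), Kcnmb1 (0.97) and Trpm4 (0.95) were called higher, and Chrnb1 was also called with cyclic loess (0.86). Leaving out 1 array brought some of these members over the threshold. Kcnab1 was then called without maturation replicate 3 or 4 or secretory replicate 1 or 4 (-0.91 to -0.85), and Kcnmb1 without maturation replicate 2 or 3 or secretory replicate 3 or 4 (0.86 to 0.99). Chrnb1 was called without replicate 3 of either stage (0.90 and 0.92), and Chrnb4 without maturation replicate 1 or 4 or secretory replicate 4 (-1.04 to -0.85).

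Channels that the family names do not cover were read from a list of 66 names, for which 62 probes were found and 32 detected. Of the 62 probes, 5 were called higher and 4 lower (14.5%, where 7.75% of all probes were called). One of the Cftr probes, for the chloride and bicarbonate channel of secretory epithelia, read 6.83, 7.55, 6.99 and 6.96 in the maturation stage and was not detected in the secretory stage (at least 4.11-fold, adjusted p = 3.52e-06), while the other Cftr probe was not detected on any array. The subunits of the epithelial sodium channel split: Scnn1a was higher (1.13) and Scnn1b lower (-2.21, adjusted p = 3.02e-05), and Scnn1g did not reach the fold threshold (-0.51, adjusted p = 0.0163). Mcoln1, a lysosomal cation channel (1.55), the ATP-gated P2rx2 (1.02) and RGD1308260, now Ano10 (0.88), were higher. The calcium-activated chloride channel Tmem16a, now Ano1 (-1.27), Vmd2l3, now Best3 (-0.95), and the glutamate receptor subunit Grik5 (-0.90) were lower.

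Proteins that partner or regulate channels came from a list of 30 names with 27 probes, of which 3 were called higher and 6 lower. The called share was 33.3%, where 7.75% of all probes were called. The kinases Sgk, now Sgk1 (2.07), Prkwnk1, now Wnk1 (1.32), and Wnk4 (0.91), which regulate sodium, potassium and chloride transport, were higher. The ubiquitin ligase Nedd4l, which removes epithelial sodium channels from the membrane, was lower (-1.41, adjusted p = 1.54e-06). The falls also held Fxyd4 (at least 43.6-fold lower) and Fxyd3 (-1.89), regulators of the sodium pump, Ly6d (at least 25.2-fold lower), the membrane anchor Ank2 (-1.68) and Freq, now Ncs1, a calcium sensor that partners Kcnd channels like Kcnip2 (-1.45, adjusted p = 6.76e-05).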

How the data were processed

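RNA of the enamel organs of 4 rats, prepared with Trizol and the miRNeasy kit, was labelled as cRNA with the MessageAmp kit and hybridized to 8 arrays, 4 per stage. For every probe and array the authors deposited an uncorrected, unnormalized mean bead intensity, its detection p-value, the count of beads and a bead standard error, which was not used. The software behind these summaries is not given in the sources used here. The members were read by 19 to 77 beads per array, and the number of arrays limits the precision. Signals summed to 13355073 to 16122665 per maturation-stage array and 11881691 to 12046793 per secretory-stage array.

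Background was removed with limma 3.58.1 in R 4.3.3 (function neqc, which here infers the negative controls through the detection p-values and adds 16 to each signal), followed by quantile normalization and a log2 transformation. lmFit and eBayes tested all 22523 probes without pairing, with Benjamini-Hochberg adjustment over all of them; the script was tested on simulated data. A probe was undetected in a stage when its detection p was at least 0.05 on each of the 4 arrays, and it then has only a bound on its fold, taken against the faintest detected signal of every array. P-values measure the spread between rats. Both stages came from every rat, so replicate numbers pair the samples: over 11233 probes, deviations from the stage means correlated at 0.129 to 0.234 within a rat. A block for the rat was tried as an alternative, beside other background corrections, normalizations, a detection filter, the Student test of the methods, other thresholds, bounds in place of fitted folds, and each array left out.

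The members and lists were chosen with earlier results of these data known. The members named are all those called, the 2 with the highest mean signal in each family, probes of 1 gene that disagree, and members with an adjusted p below 0.05 and a fold of 1.5 to 1.8; others were named after their values were seen. Some members are counted but not reported here by name. All 192 member probes matched a gene ID in RefSeq's GRCr8 table, where 6 symbols differ from those on the array, and promoter sequences are from RefSeq.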

Additional observations from a re-analysis of the deposited data

Results flagged for a closer look

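In 5 of the 85 groups of 4 arrays examined among the named members, 1 array stood apart from the other 3 by more than Dixon's 95% critical value for 4 values; about 1 in 20 groups, or 4.25 here, passes by chance. For Cacna1d, maturation replicate 2 read 4.825 on the log2 scale, below the 5.392 to 5.458 of the others. For the called Kcnq5 probe, maturation replicate 1 read 5.221, above 4.791 to 4.824. For Kcne3, maturation replicate 2 read 5.79, above 5.024 to 5.139 and within the range of the secretory stage. For Kcnd3, secretory replicate 1 read 5.379, below 5.747 to 5.809, and for Trpv2, secretory replicate 4 read 6.303, below 6.462 to 6.469. The cause was not tested for any of them.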

How the results depend on the processing

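With 13 members called higher and 12 lower as reported, no called member changed direction under any alternative. The counts moved by more than 1.5 times without background correction (6 higher, 4 lower), for the lower calls with an offset of 50 (6) and with median scaling (7), and without a fold threshold (25 higher, 26 lower). Leaving out 1 array gave 12 to 15 higher and 10 to 14 lower calls. The rat as a replicate block gave 13 higher and 12 lower calls and changed no call of a member. Under every alternative 10 of the 25 were called, among them Kcnn4, Clca2, Trpm6, Kcnk1, Scn10a, Kcnip2, Chrna10 and Cacnb2. The other 15 lost their call without background correction. There a constant background stays in the signals, which shrinks the folds of faint probes most. Not all 15 were faint, as Cacnb3 read 777 to 1221 deposited units, and the cause of each loss was not tested. Median scaling ended the calls of Cacna1d, Cacna1g, Cacnb3, Kcng1 and Kcnq5 and added calls, among them those of Chrnb1, Clic1, Clic2, Kcnmb1 and Trpm4. Cyclic loess ended those of Cacna1g, Cacnb3 and Kcnq5 and added that of Chrnb1, normexp without negative controls ended those of Cacna1d, Cacna1g, Kcnq5 and Scn7a, and an offset of 50 ended those of Cacna1d, Cacna1g, Clca5, Kcng1, Kcng2, Kcnq5, Scn4b, Scn7a and Trpv2. Among members without a call, Trpc4ap turned positive with cyclic loess (0.02648) and median scaling (0.2221) and Trpv4 with median scaling (0.2278), while Scn1a ranged from -0.04284 to 0.2473 when 1 array was left out and was negative without maturation replicate 1 or 4 or secretory replicate 3. Background limits the folds of faint probes: 90 members were detected on no array.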
